A study of Capra hircus with 21 samples.

Results

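The step from the 4-cell to the 8-cell embryo was compared in the goat (Capra hircus), using 3 libraries of 4-cell embryos and 3 of 8-cell embryos, 6 of the 21 libraries in the series, and all 19040 genes of the deposited expression table. Titles gave the stage of each library, and total RNA was sequenced. Both groups were embryos that had developed in the animal, with no treatment or genetic change named. The other libraries, 3 per stage, came from oocytes matured in the animal and from 2-cell, 16-cell, morula and blastocyst embryos. The labels give no breed, age or number of embryos per library, and do not state that a stage was sampled from several animals, so p-values measure the spread between these libraries alone, which may be technical.

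An early mammalian embryo lives at first on messenger RNA and protein stored in the oocyte, and its own genome is transcribed only after some cleavage divisions. In cattle, sheep and goats a small set of genes is transcribed early, and a broader wave of embryonic transcription comes later in cleavage. During the same period stored maternal messages are shortened at their poly(A) tails and degraded, so a change in level at one stage can come from new transcription, from decay or from both, and these cannot be told apart in total RNA. Nor can fewer transcripts per cell be told apart from fewer cells or less RNA in a library.

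The deposited values were read as RPKM, reads scaled by the whole span of the gene and by library size, with an offset of 0.01 that stands for no read. No header or label names the unit. Between 15.51 and 24.97 M reads per library lay in genes, and for a gene spanning 10 kb the limit set by a count of 0 (3 reads) was 0.00459 to 0.00688 RPKM. The 8-cell libraries were close to one another (correlation of log values 0.963 to 0.988). Among 4-cell libraries, 4-cell B stood farthest from the 8-cell libraries (0.891 to 0.917, against 0.941 to 0.962 for 4-cell A), and where a named gene was no longer called without it this is said beside its call. Oocyte genes were present in both groups. GDF9, an oocyte-secreted growth factor, lay at 140 to 161 RPKM in 4-cell and 178 to 208 RPKM in 8-cell libraries, and BMP15, its partner, at 78.2 to 82.9 and 73.5 to 94.4 RPKM. BTG4, an adaptor for removal of maternal messages, lay at 269 to 349 RPKM in 4-cell libraries and lower in all 8-cell libraries, at 151 to 186 RPKM, a log2 difference of -0.78 that did not pass the test (adjusted p = 0.714).

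Of 4253 genes that reached 1 RPKM in 3 or more of the 21 libraries, 25 (0.588%) rose and 4 (0.0941%) fell between the stages. A gene was called when its change on log2(RPKM + 1) was at least 1 in size and its limma p, adjusted over all genes tested, was below 0.05. In the same model 186 genes (4.37%) rose and 17 (0.4%) fell from the oocyte to the 2-cell stage, and 0 were called from the 2-cell to the 4-cell stage, where 161 had an unadjusted p below 0.05, against 1099 in the former step and 603 in the present one. From the 8-cell to the 16-cell stage 827 (19.4%) rose and 675 (15.9%) fell. The 25 risen genes, 13 of which carry a symbol, included histone genes, factors of transcription elongation and RNA export, and genes that respond early to stimuli. All 25 were annotated as protein coding. In all 25, and in the 4 that fell, the libraries of one stage all lay above those of the other, so separate groups add no support to a call. The median size of their rise was 2.39 log2 units, while the median over all genes tested was 0.00.

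**Figure D1:**
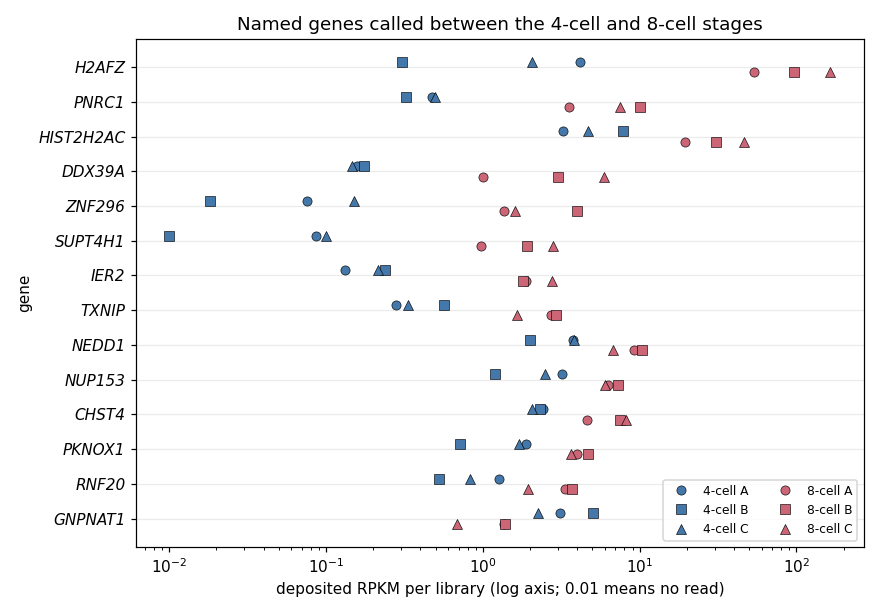
Deposited RPKM (log axis) of the 14 called genes that carry a symbol, in each 4-cell library (blue) and 8-cell library (red), with circles, squares and triangles for libraries A, B and C. For the 13 risen genes every red point lies right of every blue point, and for GNPNAT1 every red point lies left.

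H2AFZ, which encodes the replacement histone H2A.Z found at promoters, showed the largest rise among genes with a symbol. It lies on chromosome 6 from 24995383 to 24997922 in the table's coordinates, whose build is not given in the sources used here. The 4-cell libraries A, B and C held 4.18, 0.305 and 2.07 RPKM, and the 8-cell libraries 53.8, 96.7 and 165 RPKM. Every 8-cell library was above every 4-cell library by a wide margin, with 4-cell B lowest and 8-cell C highest (log2 fold change 5.13, SE 0.54, adjusted p = 3.71e-05). HIST2H2AC, a core H2A gene on chromosome 3 (99443303 to 99443693), held 3.24, 7.77 and 4.71 RPKM and then 19.4, 30.8 and 46.0 RPKM. The groups did not overlap, and the rise was 2.39 log2 units (SE 0.51, adjusted p = 0.0280). That call was lost when 4-cell A, 4-cell C, 8-cell B or 8-cell C was left out (adjusted p up to 0.128). RNF20, a ligase that attaches ubiquitin to histone H2B, rose from 1.27, 0.526 and 0.823 RPKM to 3.35, 3.69 and 1.94 RPKM (1.08, adjusted p = 0.0295). Its call was lost without 4-cell B, 4-cell C, 8-cell A or 8-cell B (up to 0.243) and without the gene span (0.214). Histone genes have near-identical copies, and how shared reads were assigned is not given, so the split between copies is uncertain.

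Several risen genes act in transcription and in the handling of new RNA. SUPT4H1, a subunit of an elongation factor of RNA polymerase II, was near the floor in 4-cell libraries, at 0.0863, 0.01 and 0.0996 RPKM, and held 0.969, 1.92 and 2.79 RPKM in 8-cell libraries. It had no read in any 2-cell library and its rise (1.39, SE 0.23, adjusted p = 0.00379) was called in each fit that left out a library. DDX39A, an RNA helicase of splicing and export, held 0.157, 0.174 and 0.146 RPKM and then 1.01, 3.02 and 5.91 RPKM. The 4-cell values were tight and the 8-cell values spread widely, with A lowest and C highest, and the call (1.72, SE 0.39, adjusted p = 0.0371) held only with all 6 libraries or without 8-cell A (up to 0.203 otherwise). PNRC1, a coactivator of nuclear receptors on chromosome 9 (48326929 to 48330173), rose from 0.475, 0.326 and 0.497 RPKM to 3.54, 10.04 and 7.46 RPKM (2.39, SE 0.38, adjusted p = 0.00326). All its 8-cell libraries were well above all 4-cell libraries, and the call held whichever of the 6 was left out.

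The transcription factors among the risen genes were of differing level. ZNF296, a zinc-finger protein with no read in oocytes or 2-cell embryos, held 0.0757, 0.0181 and 0.150 RPKM in 4-cell libraries and 1.37, 3.96 and 1.61 RPKM in 8-cell libraries (1.54, SE 0.27, adjusted p = 0.00526). Its adjusted p was 0.0526 without 8-cell B, its highest library. PKNOX1, a homeodomain protein, rose from 1.90, 0.713 and 1.71 RPKM to 4.01, 4.71 and 3.65 RPKM (1.10, adjusted p = 0.0287). Its call was lost without 4-cell B, 8-cell A or 8-cell B (up to 0.254) and without the gene span (0.354).

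TXNIP and IER2 are known to respond quickly to stimuli. TXNIP, an inhibitor of thioredoxin that also restrains glucose uptake, held 0.278, 0.568 and 0.335 RPKM in 4-cell libraries and 2.72, 2.94 and 1.65 RPKM in 8-cell libraries, with no overlap (1.29, SE 0.18, adjusted p = 0.000691). It was the one gene (0.0235% of 4253) whose change differed from its own change between the 2-cell and 4-cell stages in the 21-library fit (difference 2.08 log2 units, adjusted p = 0.00721). Both steps use the 4-cell libraries. By the same limma contrast no gene passed without 4-cell A or 4-cell C (lowest adjusted p 0.156 and 0.121). Nor did any with median-ratio scaling (0.175) or without the gene span (0.0635). IER2, an immediate early gene, held 0.133, 0.237 and 0.214 RPKM and then 1.89, 1.798 and 2.75 RPKM. The values within each stage were alike and the stages far apart, and the rise was called with all libraries (1.39, SE 0.31, adjusted p = 0.0360) but not in any of the 6 fits that left one out (0.0803 to 0.171), nor without the gene span (0.0841).

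The other risen genes with a symbol are a gene of the spindle, a gene of the nuclear envelope and a sulfotransferase gene. NEDD1, which brings gamma-tubulin to spindle poles, held 3.77, 1.99 and 3.79 RPKM and then 9.26, 10.4 and 6.76 RPKM (1.24, adjusted p = 0.0371). NUP153, a protein of the nuclear pore basket, held 3.17, 1.19 and 2.502 RPKM and then 6.26, 7.25 and 6.01 RPKM (1.24, adjusted p = 0.0360). CHST4, a sulfotransferase that acts on carbohydrate chains, held 2.42, 2.30 and 2.06 RPKM and then 4.64, 7.53 and 8.13 RPKM (1.22, adjusted p = 0.0249). In each of these genes the groups were separate, but the changes were smaller than for H2AFZ or PNRC1 and 4-cell B was the lowest library for NEDD1 and NUP153. The NEDD1 call was lost without 4-cell B, 4-cell C, 8-cell A or 8-cell B (up to 0.313). The NUP153 call was lost without any library except 4-cell A (up to 0.313), and the CHST4 call without 4-cell B, 4-cell C, 8-cell B or 8-cell C (up to 0.129). Without the gene span the adjusted p was 0.316 for NEDD1, 0.289 for NUP153 and 0.0760 for CHST4.

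The risen genes without a symbol reached the largest changes. ENSCHIG00000008431, on chromosome 7 from 68261631 to 68262634, held 0.443, 0.01 and 0.170 RPKM in 4-cell libraries and 11.7, 50.4 and 196 RPKM in 8-cell libraries (5.40, SE 0.91, adjusted p = 0.00379). ENSCHIG00000015823, on the same chromosome from 93151681 to 93152970, held 4.21, 0.176 and 3.69 RPKM and then 81.0, 129 and 121 RPKM (5.15, SE 0.87, adjusted p = 0.00379). The first varied widely among 8-cell libraries and the second did not, and 4-cell B was lowest in both. Of the 25 risen genes, 19 were lowest in 4-cell B and 15 highest in 8-cell C, where 1512 and 1868 of all 4253 genes tested had those places. When 4-cell B was left out 12 genes rose and 2 fell. Without 8-cell B the counts were 11 and 1, and without 8-cell A, 20 and 2. In the fits that left out any one of the 6 libraries, 10 of the 25 risen genes were called each time, among them H2AFZ, PNRC1, SUPT4H1 and TXNIP.

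Few genes fell. GNPNAT1, an enzyme on the way to UDP-N-acetylglucosamine, went from 3.11, 5.05 and 2.23 RPKM to 1.36, 1.38 and 0.685 RPKM. All 8-cell libraries were below all 4-cell libraries, with 4-cell B the highest (-1.03, SE 0.24, adjusted p = 0.0444). This call held only with all libraries or without 4-cell C (up to 0.370 otherwise), and was lost with median-ratio scaling (0.0861) and without the gene span (0.221). ENSCHIG00000026952, on chromosome 6 from 66664078 to 66677168, went from 5.33, 7.17 and 4.99 RPKM to 0.215, 0.174 and 1.26 RPKM (-2.19, SE 0.25, adjusted p = 7.29e-05). ENSCHIG00000011965, on chromosome 18 from 52633669 to 52637373, went from 5.72, 6.79 and 5.36 RPKM to 0.811, 0.723 and 2.16 RPKM (-1.69, SE 0.29, adjusted p = 0.00448, and 0.0525 without 8-cell B). In both, 8-cell C kept more of the transcript than 8-cell A and B did.

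**Figure D2:**
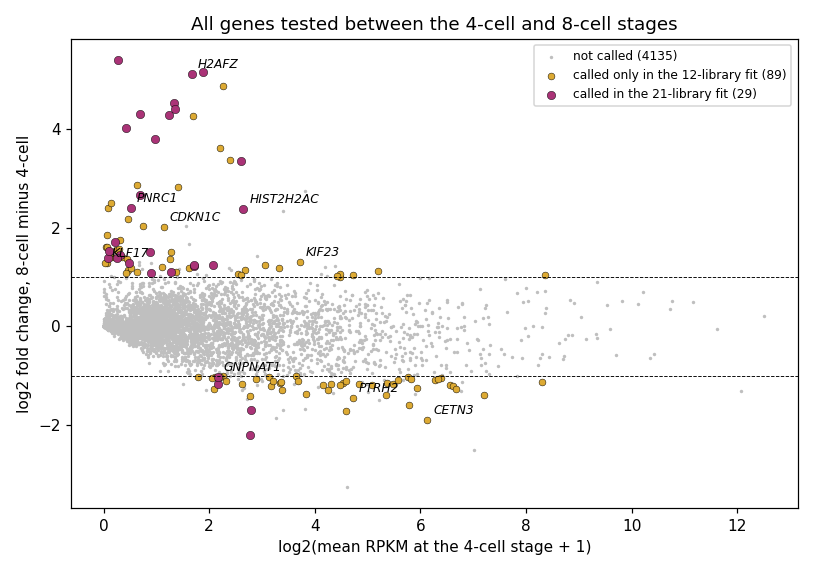
Log2 fold change (8-cell minus 4-cell, on RPKM + 1) of all 4253 genes tested against log2(mean RPKM at the 4-cell stage + 1), with dashed lines at the size needed for a call. The 29 genes called with all 21 libraries (purple) are mostly genes with low 4-cell values, while the 89 called only in the fit of the 12 early libraries (yellow) include falls among well expressed genes such as CETN3.

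The spread in the 21-library fit was estimated together with the 16-cell, morula and blastocyst libraries. When only the 12 libraries from oocyte to 8-cell were fitted, 68 genes (1.60% of 4253) rose and 50 (1.18%) fell, and all 29 genes above were again called. The share of called genes that rose went from 86.2% to 57.6%, and was 59.1% with all 21 libraries after quantile normalization and 43.3% with array weights. The genes described next from this fit were singled out after their values were seen. All 68 rises and all 50 falls had separate groups. In fits that left out one of the 6 libraries, 37 of the 68 rises and 6 of the 50 falls were called each time. The number of falls was 7 without 4-cell B, 7 without 8-cell B and 77 without 8-cell C, and 45 of the 50 fallen genes were highest in 4-cell B, against 1616 of all 4253.

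Further rises in the 12-library fit included regulators of the cell cycle and of transcription. CDKN1C, an imprinted inhibitor of cyclin-dependent kinases, held 1.18, 0.704 and 1.71 RPKM in 4-cell libraries and 4.18, 7.49 and 14.2 RPKM in 8-cell libraries (2.02, adjusted p = 0.00760). HEXIM1, which inhibits the elongation kinase P-TEFb, held 0.268, 0.105 and 0.462 RPKM and then 1.09, 2.75 and 3.80 RPKM (1.40, adjusted p = 0.00605). KLF17, a Kruppel-like factor known from early embryos, held 0.0389, 0.01 and 0.0260 RPKM and then 0.810, 1.67 and 2.24 RPKM (1.29, adjusted p = 0.000478). In these 3 genes 8-cell A was the lowest 8-cell library and 8-cell C the highest, the groups were separate, and the calls held whichever library was left out. The 21-library fit did not call CDKN1C (adjusted p = 0.0773), HEXIM1 (0.0717) or KLF17 (0.205). H2AFJ, an H2A variant gene, rose by 1.57 (adjusted p = 0.000136), whichever library was left out. HIST1H1C, a linker histone gene, rose by 1.37 (0.0179), ELOA, a subunit of elongin, by 1.09 (0.00557), and IFIT1, an interferon-induced gene, by 1.5 (0.0159). The HIST1H1C call was lost without 4-cell B or 8-cell B (up to 0.0844), the ELOA call without 4-cell B, 8-cell B or 8-cell C, where its change was under 1 (adjusted p at most 0.0307), and that of IFIT1 without 4-cell B, 8-cell A or 8-cell B (up to 0.0771).

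All 50 genes that fell in the 12-library fit had reached 1 RPKM before the 8-cell stage, and a fall of 1 on log2(RPKM + 1) cannot be measured from below that level. CETN3, a centrin of the centriole, went from 51.4, 107 and 48.6 RPKM to 19.3, 12.9 and 18.2 RPKM (-1.90, adjusted p = 0.00402). THOC7, a subunit of a complex for messenger RNA export, went from 11.1, 17.4 and 11.5 RPKM to 4.92, 2.97 and 5.83 RPKM (-1.37, adjusted p = 0.00928). In both genes the groups were separate. Along with PBDC1 (-1.16, adjusted p = 0.00760) these were the falls with a symbol that were called whichever library was left out. PTRH2, a mitochondrial peptidyl-tRNA hydrolase, went from 22.8, 36.5 and 16.9 RPKM to 11.2, 6.41 and 7.57 RPKM (-1.46, adjusted p = 0.0157), but not without 4-cell B or 8-cell B (up to 0.0797). Its mean then stood at 326 RPKM at the 16-cell stage. The polymerase II subunit gene POLR2G fell by 1.12 (adjusted p = 0.0279, up to 0.124 without 4-cell B, 8-cell A or 8-cell B).

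Long genes have low RPKM because the values are divided by the whole span of a gene, introns included. On reads scaled by library size alone (RPM), without the span, 10384 genes could be tested, and 30 (0.289%) rose and 10 (0.0963%) fell with all libraries. With the 12 early libraries the counts were 209 (2.01%) and 143 (1.38%). Without 4-cell B the latter were 74 and 19, and without 8-cell B, 77 and 17. Of the 25 genes risen on RPKM, 18 were also called here. KLF10, an early-response zinc-finger repressor, had 14, 21 and 32 reads in 4-cell libraries and 278, 361 and 328 reads in 8-cell libraries (2.31 on log2(RPM + 1), adjusted p = 0.0463). NXF1, the main export receptor of messenger RNA, had 180, 89 and 81 reads and then 751, 909 and 628 reads (2.28, adjusted p = 0.00352). RSRP1, a protein with a domain rich in arginine and serine, had 3, 6 and 17 reads and then 347, 1211 and 248 reads (3.12, adjusted p = 0.0126). None of the 3 showed overlap, 8-cell B was the highest library in each, and with the 12 early libraries each was called whichever library was left out. TMEM37, GLA, ARMH4 and ZNF711 also rose on this scale, and in the 12 early libraries were called whichever library was left out. C4orf17 rose too (2.56, adjusted p = 0.0178), with 90, 2 and 135 reads and then 855, 787 and 412 reads, as did XKR4 (1.13, adjusted p = 0.0392). In the 12 early libraries C4orf17 was lost without 4-cell B, 8-cell A or 8-cell B (up to 0.126), and XKR4 without 4-cell B, 4-cell C, 8-cell B or 8-cell C (up to 0.122). GLA, a lysosomal galactosidase, rose by 1.92 (adjusted p = 0.0170), and TMEM37, a membrane protein, by 2.88 (adjusted p = 0.0195).

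Of the 10 genes that fell on RPM, 8 had a symbol, and the largest fall was that of ENSCHIG00000026952, described above (-3.70, adjusted p = 0.00254). PSMA8, a proteasome subunit of germ cells, went from 299, 386 and 333 reads to 89, 40 and 46 reads (-1.87, adjusted p = 0.0105). SQSTM1, an autophagy receptor, went from 311, 581 and 245 reads to 103, 65 and 81 reads (-1.62, adjusted p = 0.00492). In both the 8-cell libraries were all below the 4-cell libraries, and with the 12 early libraries each was called whichever library was left out. PEX14, a peroxisome protein, fell as well and was called likewise. PDE6C, R3HCC1 and SNX11 also fell, but in the 12 early libraries not without 4-cell B or 8-cell B, among others (up to 0.0636, 0.108 and 0.0881). The row RF00002, an RNA family whose listed span covers 23247666 bases, also fell, and was lost there without 4-cell A, 4-cell B, 8-cell A or 8-cell B (up to 0.130). Such a row joins copies from many places and has no meaningful length.

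Genes absent before the 8-cell stage were sought by reads. Only 12 genes had at most 3 reads in each oocyte, 2-cell and 4-cell library and at least 10 in each 8-cell library, and 1 gene had the opposite pattern. Of the 12, 6 carry a symbol. KLF17 had no read in oocytes or 2-cell embryos, 2, 0 and 1 reads in the 4-cell libraries, and 64, 114 and 170 reads in the 8-cell libraries. HMX3, a homeobox gene, had 2, 0 and 2 reads and then 30, 32 and 24 reads. SP9, a zinc-finger factor, had 2, 0 and 1 reads and then 14, 28 and 19 reads. All 3 of these encode transcription factors. The rule itself required at least 10 reads in each 8-cell library, and HMX3 and SP9 stayed at 14 to 32 reads there. The others were RNF217, a ubiquitin ligase (22 to 40 reads in 8-cell libraries), FREM3, an extracellular matrix protein (11 to 61 reads), and SPARCL1, a matrix glycoprotein (20 to 48 reads).

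**Figure D3:**
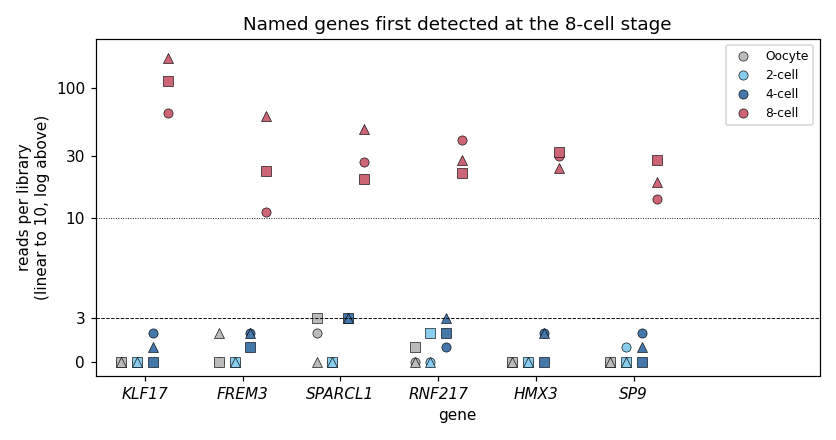
Reads in each oocyte, 2-cell, 4-cell and 8-cell library (circles, squares and triangles for A, B and C) of the 6 named genes first detected at the 8-cell stage. All earlier libraries lie at or below 3 reads (dashed line) and all 8-cell libraries above 10 (dotted line), with KLF17 the highest at 64 to 170 reads.

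Of the 12 genes, 4 reached the filter on RPKM and 7 that on RPM. In the 12-library fits 1 was called on RPKM, KLF17, and 2 on RPM. HMX3 had a small change on RPM (0.59). By the same rule applied to neighbouring stages alone, 19 genes appeared and 3 disappeared between the 4-cell and 8-cell stages, against 142 and 0 from oocyte to 2-cell, 3 and 0 from 2-cell to 4-cell and 156 and 70 from 8-cell to 16-cell. These steps share libraries and depth differs, so the counts are given side by side. Genes at 1 RPKM or more numbered 2819, 2757 and 2822 in the 4-cell and 2871, 2872 and 2926 in the 8-cell libraries. Every 8-cell library listed more genes than any 4-cell library, and the difference of 90.3 had p = 0.1 by an exact permutation test (two-sided), the lowest that 3 against 3 libraries allow. The 2-cell libraries listed 2977, 2905 and 2899 such genes, about as many as the 8-cell libraries. At 5 RPKM or more the stages overlapped, with 1051, 1100 and 1078 genes in 4-cell and 1081, 1066 and 1101 in 8-cell libraries (difference 6.33, p = 0.7 by the same exact permutation test).

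The later stages show whether a rise went on. The comparison of 8-cell with 16-cell embryos shares the 8-cell libraries with the present one. Of the 25 risen genes 14 had their highest mean at the 16-cell stage and 11 at the 8-cell stage, where 554 and 821 of all 4253 genes tested had those peaks. In blastocysts the mean of all 25 was below the 8-cell mean, as for 2665 of all 4253. The 25 were chosen for a high 8-cell value, so these counts are a description. H2AFZ went from 2.18 ± 1.94 RPKM (mean ± SD, n = 3 here and below) over 105 ± 55.8 RPKM to 814 ± 427 RPKM at the 16-cell stage. PNRC1 went from 0.433 ± 0.0933 over 7.01 ± 3.27 to 75.5 ± 22.2 RPKM, and DDX39A from 0.159 ± 0.0142 over 3.31 ± 2.46 to 18.2 ± 4.13 RPKM. In these 3 genes the 8-cell level was a small part of the 16-cell level. KLF17 and KLF10, at 1.57 ± 0.718 and 0.957 ± 0.194 RPKM in 8-cell embryos, reached 59.2 ± 32.1 and 15.9 ± 11.2 RPKM.

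Other risen genes had their highest mean at the 8-cell stage and were lower at the 16-cell stage. CHST4 stood at 5.95 ± 0.922 RPKM in 2-cell, 2.26 ± 0.184 RPKM in 4-cell, 6.77 ± 1.86 RPKM in 8-cell and 0.244 ± 0.287 RPKM in 16-cell embryos. TXNIP stood at 1.42 ± 0.274, 0.394 ± 0.153, 2.44 ± 0.693 and 0.194 ± 0.123 RPKM at the same stages. Both means were higher in 2-cell and 8-cell than in 4-cell embryos, though limma called neither between the 2-cell and 4-cell stages. At the 16-cell stage both were low, and limma gave falls from the 8-cell stage of -2.64 (adjusted p = 1.94e-07) and -1.51 (adjusted p = 1.89e-06). NEDD1, NUP153, PKNOX1 and RNF20 also had their highest mean at the 8-cell stage and fell to the 16-cell stage, by 2.18, 1.64, 1.82 and 1.30 log2 units (highest adjusted p = 0.000141). Their 4-cell means, too, lay below their 2-cell means, though limma called none of them in that step. The means were 3.18 against 5.47 RPKM for NEDD1, 2.29 against 3.13 for NUP153, 1.44 against 2.12 for PKNOX1 and 0.873 against 1.22 for RNF20. Both steps share the 4-cell libraries, and all these genes, with CHST4 and TXNIP, were chosen for 4-cell values below their 8-cell values. That choice favours 4-cell means below the 2-cell means, so these values are a description. In the 12-library fit 13 genes (0.306%) had a change from the 4-cell to the 8-cell stage that differed from their change between the 2-cell and 4-cell stages. This test, too, uses the 4-cell libraries in both steps. Among them were TXNIP, CHST4 (difference 2.31, adjusted p = 0.0195), IER2 (1.33, 0.0180), KLF10 (0.85, 0.0133) and PNRC1 (2.33, 0.0497).

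**Figure D4:**
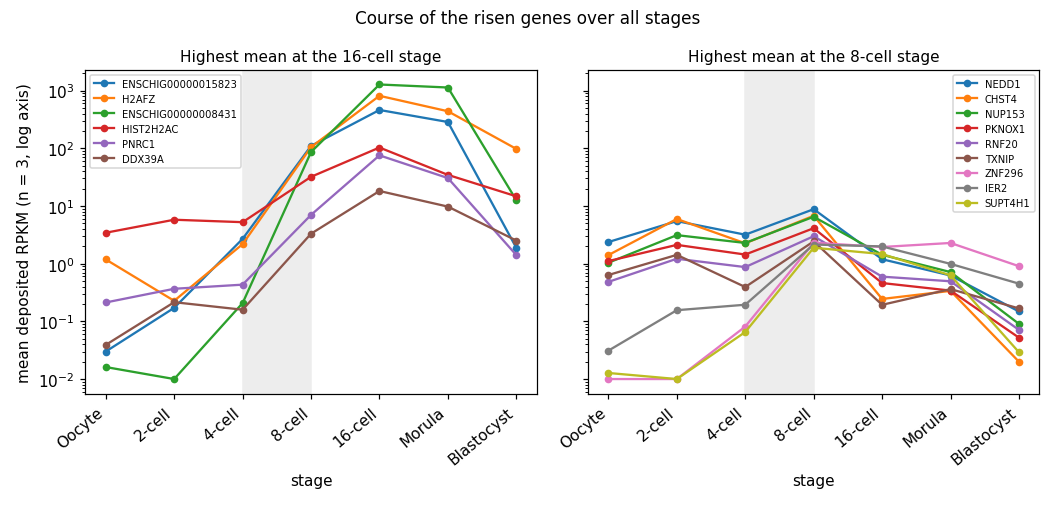
Mean deposited RPKM (n = 3, log axis) over the 7 stages of the 13 named and 2 unnamed risen genes described above, with the 4-cell to 8-cell step shaded. Genes on the left, such as H2AFZ, are highest at the 16-cell stage (814 RPKM), and genes on the right, such as CHST4, are highest at the 8-cell stage (6.77 RPKM).

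In all, 20 gene lists covering the work of the early embryo are described by their members. Beside the calls, a member is counted as separate when its 3 libraries of one stage all lie above the 3 of the other. Over all 4253 genes tested 804 (18.9%) were separate and higher at the 8-cell stage and 708 (16.6%) separate and lower, and those shares are the background for the counts below.

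Lists of transcription were mixed. Among 19 tested histone genes 2 rose in the 21-library fit and 4 in the 12-library fit, 5 were separate and higher and 2 lower, and the median was 0.18. Of 40 tested genes of RNA polymerase II, its general factors and Mediator, 1 (SUPT4H1) rose, and 10 were separate and higher and 11 lower, around a median of -0.02. On RPM with the 12 early libraries 4 of the 59 members tested rose and 5 fell, where 2.01% and 1.38% of all genes did. The rises were those of SUPT4H1, HEXIM1, CCNT1, the cyclin of P-TEFb (1.97, adjusted p = 0.0260), and SUPT16H, a histone chaperone (1.41, 0.0229). The falls were those of GTF2B (-1.25, adjusted p = 0.0159), CCNH (-1.06, 0.0304), MED21 (-1.04, 0.0329), POLR2G (-1.22, 0.0316) and POLR2I (-1.001, 0.0113). None of these 5 falls was called without 4-cell B or without 8-cell B (highest adjusted p 0.0817, 0.136, 0.150, 0.150 and 0.0758 over the libraries left out). CCNT1 held 0.308, 0.0894 and 0.202 RPKM and then 0.625, 0.903 and 0.755 RPKM. Its call was lost without 4-cell B, 4-cell C, 8-cell A or 8-cell B (up to 0.125), and that of SUPT16H without 4-cell B, 8-cell A or 8-cell B (up to 0.113).

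Early response and developmental factors had few tested members, most being at low level. Among 16 tested immediate early and stress-responsive factors IER2 rose, 6 were separate and higher and 2 lower. On RPM with the 12 early libraries KLF10 and GADD45B, a stress sensor with 6, 15 and 17 reads and then 140, 95 and 86 reads (1.27, adjusted p = 6.30e-05), joined it. Of 10 tested pluripotency and inner cell mass factors 5 were separate and higher and 2 lower. KLF4, a pluripotency factor, had 225, 221 and 109 reads and then 615, 662 and 536 reads (1.5, adjusted p = 0.00386), and rose in each fit that left out a library. PRDM14 (1.25, adjusted p = 0.0305) and TBX3 (1.10, 0.0138) also rose on RPM with the 12 early libraries, but not without 4-cell B or 8-cell B, among others (up to 0.127 and 0.0812). SALL4, another such factor, lay at 3.30, 3.06 and 2.68 RPKM and then at 1.97, 1.97 and 1.798 RPKM, which was lower but not called (adjusted p = 0.332).

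The lists of cell division held few calls. Among 45 tested M phase and cytokinesis genes 19 were separate and higher and 2 lower, with a median of 0.39, and 0 were called in the 21-library fit (6 higher and 2 lower at an unadjusted p below 0.05). In the 12-library fit 2 rose, and on RPM ESPL1, the separase that splits sister chromatids, also fell, from 386, 503 and 210 reads to 116, 134 and 82 reads (-1.31, adjusted p = 0.00996, and 0.0557 without 4-cell B). KIF23, a kinesin of the cytokinetic bridge, held 15.9, 7.75 and 12.7 RPKM and then 34.2, 36.8 and 21.9 RPKM (1.30, adjusted p = 0.0273), and TOP2A, a DNA topoisomerase of chromosome condensation, held 10.2, 4.45 and 7.24 RPKM and then 18.8, 19.3 and 15.6 RPKM (1.24, 0.0195). In both 4-cell B was lowest, and KIF23 was not called without 4-cell B, 4-cell C, 8-cell A or 8-cell B (up to 0.119), nor TOP2A without 4-cell B, 8-cell A or 8-cell B (up to 0.0878). CKS1B went the other way, by -1.09, with overlap between libraries (adjusted p = 0.338 in the 21-library fit and 0.133 in the 12-library fit). Without 4-cell B 20 of the 45 were separate and higher and 3 lower, where over all genes 929 and 799 of 4253 were. The median of the M phase list was 0.27 without 4-cell B, so the shift was smaller. Of 33 tested genes of G1/S cyclins, licensing and replication 8 were separate and higher and 4 lower, with a median of 0.09. CDKN1C was the member that rose in the 12-library fit, joined on RPM by CCNE1, a cyclin of S phase entry (1.40, adjusted p = 0.0188), though not without 4-cell B, 4-cell C or 8-cell B (up to 0.1004).

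Chaperones and nuclear pore genes each held 1 called member in the 12-library fit. Of 27 tested heat shock proteins and chaperones 13 were separate and higher and 1 lower, with a median of 0.27. HSPA5, the chief chaperone of the endoplasmic reticulum, held 1.78, 2.09 and 2.37 RPKM and then 4.84, 9.12 and 4.67 RPKM and rose in the 12-library fit (1.18, adjusted p = 0.0120), but not without 8-cell B, where the change was below 1 (highest adjusted p 0.0479). Of 15 tested nuclear pore and transport genes 1 (NUP153) rose, 5 were separate and higher and 1 lower, with a median of 0.20. Its 49 members tested on RPM had a median of 0.12. With the 12 early libraries on that scale XPOT, the exporter of transfer RNA, rose too (1.05, adjusted p = 0.0293), but not without 4-cell B, 4-cell C, 8-cell A or 8-cell B (up to 0.132).

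Lists of abundant housekeeping genes had medians below 0, with few calls. Of 30 tested proteasome subunits 12 were separate and lower and 1 higher, with a median of -0.16. In the 12-library fit PSMA3 (-1.28, adjusted p = 0.0259), PSMA5 (-1.09, 0.0338) and PSMB3 (-1.07, 0.0389) fell, none of them without 4-cell B, 8-cell A or 8-cell B (up to 0.118, 0.136 and 0.158). PSMA5 held 64.9, 99.0 and 65.8 RPKM and then 36.8, 32.0 and 35.3 RPKM, with 4-cell B highest. Of 33 tested spliceosome genes 11 were separate and lower and 1 higher, and SNRPB2 (-1.06, adjusted p = 0.0446) and SRSF7 (-1.10, 0.0346) fell in the 12-library fit, but not without 4-cell B, 8-cell A or 8-cell B (up to 0.181 and 0.122). Of 30 tested cytosolic ribosomal protein genes 5 were separate and lower and 0 higher (median -0.23), and of 37 tested nuclear genes of oxidative phosphorylation 8 and 0 (median -0.22). These shares, 16.7% and 21.6%, were near the 16.6% of all genes that were separate and lower, while no member of either list was separate and higher. Neither list had a member called by limma on RPKM in either fit, and 2 and 0 members were lower at an unadjusted p below 0.05 in the 21-library fit. Without 4-cell B their medians were -0.11 and -0.14, so the shift was smaller without that library. RPL32 held 7.57, 7.43 and 6.47 RPKM and then 3.69, 2.47 and 4.13 RPKM. It fell on RPM with the 12 early libraries (-1.02, adjusted p = 0.0329), but not without any library other than 8-cell C (up to 0.165).

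The remaining lists held few calls. The 13 mitochondrially encoded genes had a median of 0.49, but 1 was separate and higher and 0 lower. COX1 held 972, 748 and 229 RPKM and then 1747, 1157 and 541 RPKM, so its libraries overlapped. Nucleolar and ribosome biogenesis genes (46 tested) held 9 separate and higher and 11 lower, with NOLC1 rising by 1.05 (adjusted p = 0.0333) and UTP3 falling by 1.20 (adjusted p = 0.0333) in the 12-library fit. Translation factors (30 tested) held 5 and 5, with EIF5 rising there by 1.05 (adjusted p = 0.0427), while EIF1AX, an initiation factor, held 2.40, 5.04 and 3.22 RPKM and then 2.37, 2.29 and 2.41 RPKM. The calls of NOLC1 and EIF5 were both lost without 4-cell B, 4-cell C, 8-cell A or 8-cell B (up to 0.140 and 0.165), and that of UTP3 without any library but 4-cell A and 4-cell C (up to 0.133). Genes of mRNA deadenylation, tailing and decay (33 tested) held 10 and 5, with a median of 0.06 and 0 called by limma in any of these fits (5 higher and 0 lower at an unadjusted p below 0.05 in the 21-library fit). BTG2, a partner of the deadenylase, held 1.10, 0.370 and 0.295 RPKM and then 1.67, 1.55 and 6.23 RPKM (adjusted p = 0.173 in the 21-library fit and 0.0757 in the 12-library fit). Histone modifiers and remodelers (15 tested) held 3 and 3, and embryonic genome activation factors (9 tested) 4 and 1, with KLF17 the member that rose in the 12-library fit. Trophectoderm factors (6 tested) held 3 and 1, with 0 called on RPKM by limma and 0 at an unadjusted p below 0.05 in the 21-library fit. Maternal-effect genes (22 tested) held 3 and 3. ZP4, a zona pellucida gene, lay at 17.0, 18.5 and 16.2 RPKM and then at 49.1, 53.5 and 26.3 RPKM, separate but not called in either fit (adjusted p = 0.233 and 0.0580). Medians of the 20 lists kept their sign after quantile normalization and median-ratio scaling, except those of histone modifiers, which was 0.03 as deposited, -0.02 after the former and -0.01 after the latter, and of nucleolar genes, which was 0.02 as deposited, 0.01 after the former and -0.00033 after the latter.

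**Figure D5:**
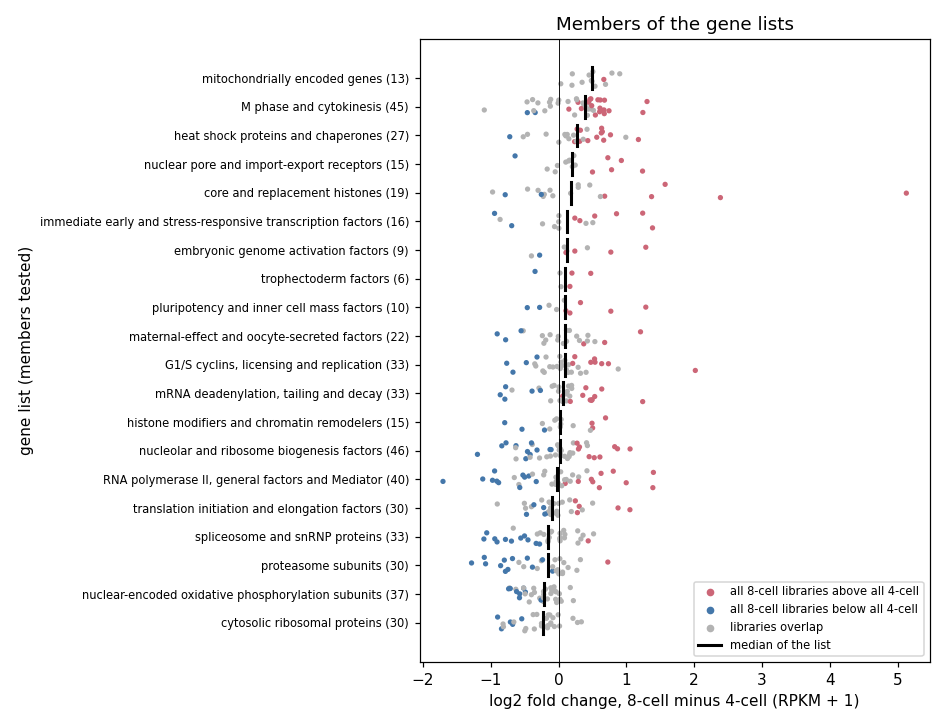
Log2 fold change (8-cell minus 4-cell, RPKM + 1) of each tested member of the gene lists, red where all 8-cell libraries lie above all 4-cell libraries, blue where all lie below, grey where they overlap, with the list median as a black bar. The M phase and chaperone lists lie to the right (medians 0.39 and 0.27) and the ribosomal protein and oxidative phosphorylation lists to the left (-0.23 and -0.22).

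Markers of other cells that a library could hold were summed in each library. The summed level of 10 blood and immune markers was at most 0.323 RPKM in 4-cell libraries and 0.0876 to 3.60 RPKM in 8-cell libraries, the top value being that of 8-cell C. There S100A8, a protein of neutrophils, reached 2.94 RPKM with no read in 8-cell A or B, and VIM, a filament protein of stromal cells, 1.82 RPKM against 0.0838 and 0.0937 RPKM. The part of this in the rises that were highest in 8-cell C was not tested. Without that library 20 genes rose and 6 fell. The sum of 12 cumulus and granulosa markers was 2.90 to 4.69 RPKM in 4-cell and 3.05 to 3.56 RPKM in 8-cell libraries, and that of 8 oviduct markers at most 1.15 RPKM. The sum of 10 endometrial and fibroblast markers was 2.47 to 3.95 and 2.67 to 4.62 RPKM. The sum of 5 sperm and spermatid markers was 3.85 to 4.44 RPKM in 4-cell and 2.17 to 2.60 RPKM in 8-cell libraries, the one set whose groups did not overlap. Nearly all of this sum was LDHC, at 3.81, 4.43 and 3.81 RPKM and then 2.482, 2.135 and 2.046 RPKM. LDHC was not called (-0.64, limma adjusted p = 0.313 with all libraries), and its mean in oocytes was 2.62 RPKM. The sum thus describes mainly LDHC, and the part of this set in the falls was not tested.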

How the data were processed

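RNA-seq of goat oocytes and embryos gave 21 libraries, 3 in each of 7 stages. The authors deposited values per gene and library, which were read as RPKM since no header or label names the unit. The submitters' processing notes list STAR 2.5.3a, Partek and FastQC. The genome build, strand and read assignment were not given in the sources used here. The values were found to be divided by the whole gene span after an offset of 0.01, since 94.7 to 96.5% of low values per library were whole multiples of 1 read (within 0.05 of a step). Reads, and reads scaled by library size (RPM), were recovered from these steps.

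Genes with at least 1 RPKM in 3 libraries were tested on log2(RPKM + 1), which understates changes of low genes, with limma 3.58.1 (trend and robust) in R 4.3.3, in 1 model of all stages. Tests were two-sided and adjusted by Benjamini-Hochberg. The test was checked on simulated data. Intervals from counts of 0 cover counting error only. Tables and figures used pandas 2.3.3, numpy 2.4.6 and matplotlib 3.10.9 in Python 3.11.15.

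Members, gene lists and comparisons were chosen with earlier results of these data known. The rule named all called genes with a symbol, at most 2 rises and 2 falls without one, up to 10 per direction called only without the span, list members called or most changed, up to 12 newly detected genes and 6 tracked genes. Genes named from the 12-library fits, S100A8 and VIM were added after values were seen. Alternatives were other pseudocounts, filters, scalings, library sets, weights, a replicate block and leaving out libraries. Of the listed symbols many were not found under that name. Found were 30 of 79 cytosolic ribosomal proteins, 42 of 93 nuclear oxidative phosphorylation subunits and 15 of 36 genome activation factors. Other lists were more complete, such as 72 of 79 genes of mRNA decay. List counts and medians thus describe only the members found and tested. Some selected genes are not described.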

Additional observations from a re-analysis of the deposited data

How the results depend on the processing

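With all 21 libraries the counts of 25 rises and 4 falls became 84 and 110 with array weights, 52 and 36 with quantile normalization, 57 and 15 without 16-cell C and morula C, 15 and 2 with a filter of 5 RPKM, 16 rises with a pseudocount of 5, and 2 falls without a filter. They were 68 and 50 with the oocyte to 8-cell libraries, 32 and 8 with the 4-cell and 8-cell libraries alone, and 19 and 3 with median-ratio scaling. Without the gene span they were 30 and 10, then 209 and 143 with the oocyte to 8-cell libraries and 95 and 33 without 16-cell C and morula C. The last 2 settings were chosen after seeing the data. Of the 25 rises and 4 falls themselves, 18 and 2 were called again with the 4-cell and 8-cell libraries alone, and 19 and 3 with median-ratio scaling. Leaving out 1 library gave 11 to 25 rises and 1 to 6 falls. In the oocyte to 8-cell libraries it gave 41 to 91 and 7 to 82 on RPKM, and 74 to 301 and 17 to 190 on RPM, also chosen after seeing the data. The cause of these moves was not tested.

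Library letters are not said to pair samples, and same-letter deviations did not go together (correlations 0.135, -0.336 and 0.227 for A, B and C). A replicate block gave 22 rises and 2 falls. Genes differing between steps numbered 1, and 13 with the oocyte to 8-cell libraries. They numbered 299 with array weights, and 0 without 4-cell A, without 4-cell C, with median-ratio scaling or without the gene span. The 12 newly detected genes became 2 with at most 1 earlier read, 25 with at most 5, and 31 with at least 5 reads at the 8-cell stage, and 15 to 21 without 1 library.

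Of 2439 values of 135 named genes under the alternatives, 5 changed sign, all of changes that were not called: BMP15 without 1 library (-0.012 to 0.167), NDUFA2 with array weights (-0.027) and without 1 library (-0.088 to 0.387), and VIM with array weights (-0.036) and without 1 library (-0.108 to 0.583). Depth limits the 12 newly detected genes, as several rest on under 30 reads per library.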

Other observations

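Several risen genes lay close together. Groups were formed after the values were seen, joining genes that rose in the fit of the 12 oocyte to 8-cell libraries and lay within 300 kb of one another in the table's coordinates, whose build is not given in the sources used here. The 68 genes gave 6 such groups. Each window runs from the first to the last risen gene of its group, so its share of risen genes is high by construction. Over all 4253 genes tested the share was 1.60%. On chromosome 23, from 18105504 to 18226203, 5 of the 14 genes tested rose. HIST1H1C and HIST1H1T, linker histone genes, were among them, with 3 genes without a symbol. The window also holds HIST1H1E, HIST1H2AC and HIST1H2BD. HIST1H1T, the linker histone of male germ cells by name, held 1.71, 0.397 and 2.62 RPKM in 4-cell libraries and 3.51, 3.82 and 5.16 RPKM in 8-cell libraries (log2 fold change 1.10, limma adjusted p = 0.0386, up to 0.117 without 4-cell B or any 8-cell library). On chromosome 3, from 99144787 to 99443693, TXNIP and HIST2H2AC were the 2 risen genes of 11 tested. Groups of 2 genes without a symbol lay on chromosome 7 (93126237 to 93152970), 15 (32454413 to 32519255) and 16 (52878346 to 53011377). Each of these windows runs from one risen gene to the other and held no other tested gene. The log2 changes of the pair on chromosome 15, genes of the same listed span (585 bases), were 4.88 and 3.79. Neighbours of like sequence may share reads, and how such reads were assigned was not tested.

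Among the 12 newly detected genes, 3 genes on unplaced scaffolds had reads in all 8-cell libraries and in 16-cell C, morula B and morula C, but 0 reads in 16-cell A, 16-cell B and morula A. For one of them the 8-cell libraries held 32.8, 31.4 and 142 reads, 16-cell C 130 and morula C 146. Their recovered read numbers are not all whole. KLF17, by contrast, had reads in every 16-cell and morula library (589 to 5341).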
